A study of Mus musculus with 24 samples.

Results

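The genes described here are the nuclear genes whose products build the respiratory chain and the ATP synthase of mitochondria. They were taken by name as every gene of the table whose symbol began with Ndufa, Ndufb, Ndufc, Ndufs, Ndufv, Uqcr, Atp5, or Cox followed by a digit from 4 to 8, together with Sdha, Sdhb, Sdhc, and Sdhd. This gave 81 of the 23930 amplicons measured. By complex they were 31 subunits of complex I, 7 complex I assembly factors, 4 subunits of complex II, 8 of complex III, 18 of complex IV including tissue isoforms, 10 of the ATP synthase (complex V), and 3 with an Atp5 name outside that enzyme. The 24 libraries came from untreated splenic cells of mice and fell into 6 groups of 4. Ly6C hi cells were sorted as CD11b(+) Ly6G(-) SiglecF(-) NK1.1(-) and Ly6C low cells by the same markers plus Fcgr4(+), the study's methods add low Fcgr4 to the Ly6C hi gate, and the labels call both macrophages whereas the study calls them monocytes. Each subset was taken from wild-type (WT) mice, from mice lacking SLC29A3, a nucleoside transporter of the lysosome (SLC29A3 -/-, written Slc29a3-/- below), and from mice lacking both SLC29A3 and TLR7, the endosomal sensor of single-stranded RNA (Slc29a3-/- Tlr7-/-). Both mutant lines carried the same Slc29a3 allele, the alleles were made by CRISPR/Cas9 in C57BL/6 mice, and the genes are disrupted in every cell of the animal rather than in monocytes alone. The age of the mice was not given in the sources used here.

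Complexes I and II take electrons from NADH and succinate, complex III passes them through cytochrome c to complex IV, which reduces oxygen, and the proton gradient built on the way drives the ATP synthase. Complex II is at the same time the succinate dehydrogenase of the tricarboxylic acid (TCA) cycle, and in macrophages the balance between glycolysis and respiration is known to shift with activation. A few catalytic subunits are encoded in mitochondrial DNA and belong to none of the genes described here. The nuclear subunits include core subunits, which do the redox chemistry, accessory subunits, and in complex IV pairs of isoforms, one used in most tissues and another known from muscle, lung, or testis.

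Promoters are shown for 5 members on which later results turn. Cox6b1 and Cox6b2 encode alternative forms of 1 subunit, of which Cox6b2 was called higher in Ly6C hi cells of all 3 genotypes and Cox6b1 in 1, Cox6a1 is the common counterpart of Cox6a2, Ndufb2 had the largest called increase in Slc29a3-/- Ly6C hi cells, and Atp5j2 was among the members called lower in Slc29a3-/- Tlr7-/- Ly6C low cells. The sequences are from RefSeq on GRCm38.p6, run 5′ to 3′ on the gene's strand from 250 bases before to 50 bases after the annotated start, and are in lower case with motif matches in capitals.
Cox6b1: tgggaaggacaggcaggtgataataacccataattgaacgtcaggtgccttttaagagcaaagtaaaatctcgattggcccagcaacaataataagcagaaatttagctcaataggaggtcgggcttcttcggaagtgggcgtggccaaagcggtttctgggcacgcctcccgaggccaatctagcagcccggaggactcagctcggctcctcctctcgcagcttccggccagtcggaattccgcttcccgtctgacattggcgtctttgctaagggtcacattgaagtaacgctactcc
Cox6b2: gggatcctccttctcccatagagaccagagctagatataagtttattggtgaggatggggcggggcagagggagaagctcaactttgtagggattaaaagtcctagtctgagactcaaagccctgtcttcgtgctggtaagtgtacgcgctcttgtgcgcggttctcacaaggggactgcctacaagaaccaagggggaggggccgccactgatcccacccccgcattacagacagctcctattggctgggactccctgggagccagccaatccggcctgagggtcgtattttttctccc
Cox6a1: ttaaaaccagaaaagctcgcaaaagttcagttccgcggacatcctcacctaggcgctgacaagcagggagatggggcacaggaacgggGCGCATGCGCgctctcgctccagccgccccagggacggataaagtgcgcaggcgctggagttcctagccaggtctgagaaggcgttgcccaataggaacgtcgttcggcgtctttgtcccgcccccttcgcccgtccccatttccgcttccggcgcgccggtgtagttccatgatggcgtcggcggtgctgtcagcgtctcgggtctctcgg
Ndufb2: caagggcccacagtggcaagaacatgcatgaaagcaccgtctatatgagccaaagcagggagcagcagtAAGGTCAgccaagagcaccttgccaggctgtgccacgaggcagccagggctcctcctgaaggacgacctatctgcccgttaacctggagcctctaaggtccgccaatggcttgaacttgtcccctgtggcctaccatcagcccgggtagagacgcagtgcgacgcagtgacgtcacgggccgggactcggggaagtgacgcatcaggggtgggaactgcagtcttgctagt
Atp5j2: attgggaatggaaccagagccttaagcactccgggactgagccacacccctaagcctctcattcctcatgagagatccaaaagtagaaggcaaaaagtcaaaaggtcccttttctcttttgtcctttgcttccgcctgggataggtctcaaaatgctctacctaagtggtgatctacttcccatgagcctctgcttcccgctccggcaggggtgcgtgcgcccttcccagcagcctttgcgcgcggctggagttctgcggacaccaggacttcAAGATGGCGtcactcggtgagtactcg
The windows lie at chr7:30626065-30626364 (minus strand), chr7:4753045-4753344 (minus strand), chr5:115348909-115349208 (minus strand), chr6:39592315-39592614 (plus strand), and chr5:145191492-145191791 (minus strand). Of other genes that carry results below, Ndufs1 lies at chr1:63143592-63176822, Sdha at chr13:74322255-74350240, Uqcrb at chr13:66900576-66905350, and Cox6a2 at chr7:128205435-128206366 on the same build.

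4 motifs were searched on both strands of the windows. GCGCATGCG, the core of the site of NRF1, a factor long tied to respiratory genes, was present in 8 of the 64 members that had a window (12.5%) against 1.95% of the 27025 genes with one. It is marked in Cox6a1, where the match on 1 strand overlaps a match on the other. AAGATGGCG, a form of the YY1 site, was found in 8 members (12.5%) against 1.64% of all genes and is marked in Atp5j2. CCGGAAGT, an ETS site as bound by GABP, was in 4 members (6.25%) against 4.31%, and AAGGTCA, the site of estrogen-related receptors, was in 5 (7.81%) against 5.38% and is marked in Ndufb2. Neither Cox6b1 nor Cox6b2 held any of these letters in this window. These shares describe the sequences and carry no test.

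The libraries held 12311031 to 14572274 reads as implied by the step between their low values, so that 3 reads amounted to 0.206 to 0.244 RPM (reads per 1000000 mapped reads). Fcgr4, itself a marker of the sort, was at 25.97 to 40.6, 43.7 to 62.5, and 36.8 to 55.2 RPM in Ly6C hi libraries (WT, Slc29a3-/-, and Slc29a3-/- Tlr7-/-, in this order) and 605 to 821, 2323 to 3017, and 1306 to 1750.1 RPM in the Ly6C low libraries. The amplicon of Slc29a3 gave 163 to 225 RPM in WT and 127 to 173 RPM in Slc29a3-/- Ly6C hi cells, and that of Tlr7 gave 298 to 479 RPM in WT and 355 to 627 RPM in Slc29a3-/- Tlr7-/- Ly6C low cells, so these amplicons did not check the genotypes. Neutrophil markers were present in the Ly6C hi gate, and their 10 genes summed to 23771 to 32787 RPM in WT, 73221 to 135288 RPM in Slc29a3-/-, and 13164 to 39304 RPM in Slc29a3-/- Tlr7-/- libraries. In bulk samples like these, a change in the share of cells of a type and a change in RNA per cell cannot be told apart. WT replicates 1 to 3 of both subsets were sequenced with a lower range of barcodes than WT replicate 4 and all mutant libraries. Against WT, barcode range and genotype cannot be told apart except, in part, through WT replicate 4. Slc29a3-/- Ly6C hi libraries had barcodes 24 to 27 and Slc29a3-/- Tlr7-/- Ly6C hi libraries 37 to 40, with WT replicate 4 at 29. In Ly6C low cells the barcodes were 30 to 33, 43 to 46, and 35 in the same order. WT replicate 4 thus lay between the mutant ranges. For the mutants set against each other, barcode range and genotype cannot be told apart at all. The labels number the replicates without naming animals, and P values therefore measure the spread between these libraries.

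Most members were expressed. Of the 81 genes, 73 passed the filter of 1 RPM in 4 libraries among the Ly6C hi libraries, 72 among the Ly6C low libraries, and 74 over all 24. The members that did not pass were mainly isoforms known from other tissues. Cox7b2, a testis isoform, and Ndufa4l2, a paralog of Ndufa4, were at 0 in all 24 libraries, which allows up to 0.206 to 0.244 RPM. The muscle isoform Cox8b was at 0 in 23 libraries, and the testis isoform Cox8c and the lung isoform Cox4i2 stayed at or under 0.162 RPM. Cox6c, a subunit of the enzyme in all tissues, also did not pass, at no more than 0.794 RPM, and the common isoform Cox8a had 0.281 to 1.23 RPM. The pseudogene Atp5c1-ps had 0.079 RPM at most. Each gene was read through a single amplicon, whose efficiency differs between genes, so a level of 1 gene is not set against that of another below. As read shares over the 24 libraries, complex I ran from a mean of 13.9 RPM for Ndufv3 to 272 RPM for Ndufb7, complex III from 18.0 RPM for Uqcrb to 216 RPM for Uqcrc1, and complex V from 75.2 RPM for Atp5d to 457 RPM for Atp5a1.

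Summed over the 81 members, reads were more numerous in Ly6C hi than in Ly6C low cells of each genotype. The sum was 9044 to 9540.2 RPM in the WT Ly6C hi libraries (9251 ± 234, mean ± SD, n = 4) and 7311 to 7749 RPM in the WT Ly6C low libraries (7504 ± 211). In Slc29a3-/- cells it was 9301 to 9534 RPM (9431 ± 113) and 6982 to 7629 RPM (7255 ± 274), and in Slc29a3-/- Tlr7-/- cells 8813 to 9514 RPM (9064 ± 313) and 5959 to 7032 RPM (6535 ± 525). The Ly6C hi and Ly6C low libraries did not overlap, the former giving 0.881 to 0.954% and the latter 0.596 to 0.775% of their reads to these genes. Between genotypes the Ly6C hi sums overlapped, whereas the Slc29a3-/- Tlr7-/- Ly6C low sums lay under all 4 WT values. A sum follows its most abundant amplicons and received no test.

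The same order held within complex I, the NADH dehydrogenase, whose 31 subunits summed to 3211 to 3517 RPM over the 12 Ly6C hi libraries and 2315 to 2735 RPM over the 12 Ly6C low libraries. Its 7 assembly factors, which help to build the enzyme without staying in it, summed to 137 to 232 RPM and 136 to 197 RPM and overlapped. Complex II, succinate dehydrogenase, summed to 689 to 707 RPM in WT Ly6C hi cells but 599 to 634 RPM in Slc29a3-/- and 627 to 774 RPM in Slc29a3-/- Tlr7-/- Ly6C hi cells. The Slc29a3-/- values lay under all 4 WT values there. Complex III, cytochrome c reductase, and complex IV, cytochrome c oxidase, were most variable in Slc29a3-/- Tlr7-/- Ly6C low cells, at 448 to 884 and 729 to 1318 RPM against 769 to 837 and 1292 to 1615 RPM in WT Ly6C low cells. The ATP synthase summed to 2290.3 to 2526 RPM in Slc29a3-/- Ly6C hi cells and 2026 to 2358 RPM in WT, with overlap.

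**Figure D1:**
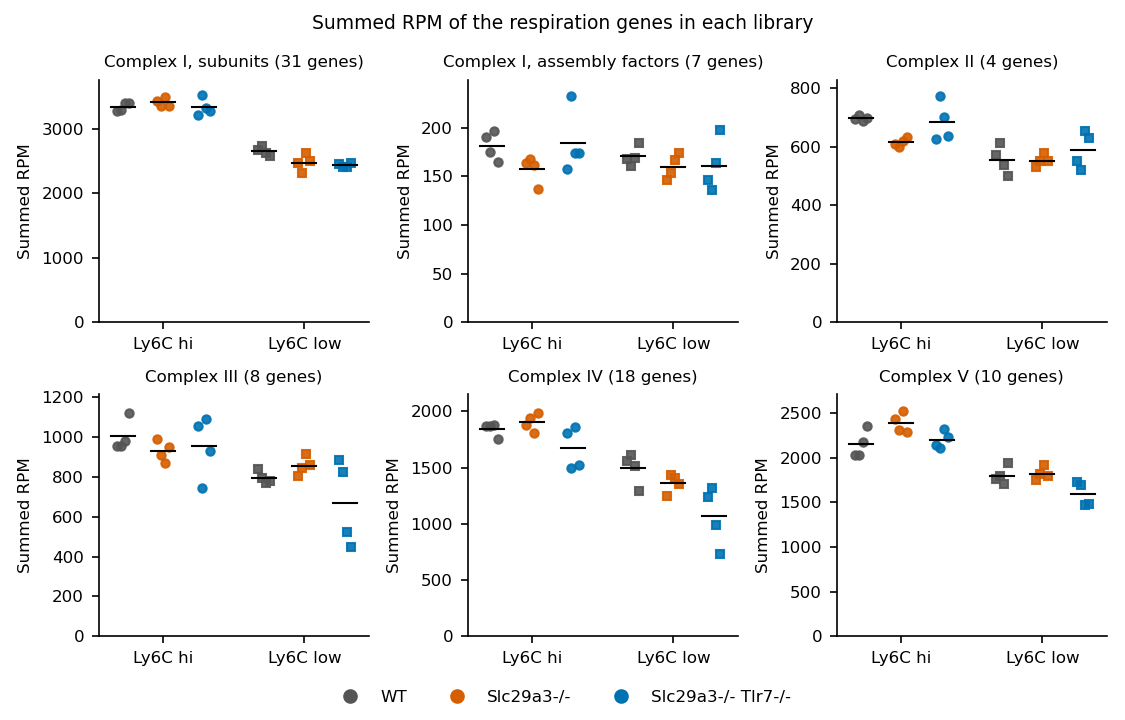
Sum of the members of each complex per library, in RPM, for WT (grey), Slc29a3-/- (orange), and Slc29a3-/- Tlr7-/- (blue) cells. Circles are Ly6C hi and squares Ly6C low libraries, and the line is the mean of 4; the complex I subunits separate the subsets (3211 to 3517 RPM against 2315 to 2735 RPM), whereas the assembly factors overlap.

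Spread within a group differed from group to group. Among members with a mean of at least 10 RPM, the median coefficient of variation between 4 replicates was 8.72% in WT, 12.8% in Slc29a3-/-, and 17.5% in Slc29a3-/- Tlr7-/- Ly6C hi cells. In Ly6C low cells it was 16.7%, 8.24%, and 23.4%. The highest value for 1 gene was 88.9%, for Uqcrb in Slc29a3-/- Tlr7-/- Ly6C low cells. Some libraries were often at the extremes. Slc29a3-/- Tlr7-/- Ly6C low replicate 4 was the lowest of the 12 Ly6C low libraries for 28 of 72 members and the highest for 18, WT Ly6C low replicate 2 was lowest for 12 and highest for 16, and Slc29a3-/- Tlr7-/- Ly6C hi replicate 2 was lowest for 17 and highest for 16 of 73.

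The comparison of the subsets asks how the genes differ between Ly6C hi and Ly6C low cells of 1 genotype. In WT mice 18 of 74 members were called higher in Ly6C hi cells and 0 lower (limma on log2(RPM + 1), Benjamini-Hochberg adjusted P under 0.05). Over all 11042 genes tested, 19.1% were called higher and 10.5% lower, so the share of members called higher was close to that of all genes and the share called lower was smaller. At an unadjusted P under 0.05 the counts were 28 higher and 1 lower (24.3% and 14.2% of all genes). In Slc29a3-/- mice 30 members were higher and 1 was lower (19.1% and 22.1% of all genes), and in Slc29a3-/- Tlr7-/- mice 34 were higher and 0 lower (21.4% and 11.8%). For the last pair the counts at an unadjusted P under 0.05 were 44 and 0 (26.9% and 15.1%). In both mutants the share of members called higher was above that of all genes. The median log2 difference of the members was 0.28 in WT, 0.34 in Slc29a3-/-, and 0.50 in Slc29a3-/- Tlr7-/- cells, beside 0.07, -0.10, and 0.12 for all genes. With RLE scaling, the median-ratio method used in the study, the medians of the members were 0.22, 0.45, and 0.40 and those of all genes 0.01, -0.01, and 0.03, and 14, 35, and 23 members were higher (17.5%, 22.4%, and 18.2% of all genes). Without replicates 3 and 4 of the Slc29a3-/- Tlr7-/- Ly6C low group, which were left out after the data were seen, 23 members were higher and 0 lower. The share of all genes in that reduced fit is not given here, so the count has no background.

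Counting members whose 4 Ly6C hi values all lay above the 4 Ly6C low values gave 25 in WT, 42 in Slc29a3-/-, and 19 in Slc29a3-/- Tlr7-/- cells. The background for this count was 20.1%, 21.4%, and 15.5% of all genes. In the opposite direction it gave 0, 4, and 0 members (13.7%, 27.3%, and 9.21% of all genes). The log2 difference was above 0 in all 3 genotypes for 49 of the 74 members and below 0 in all 3 for 0. A call was made in at least 1 genotype for 49 members and in each of the 3 for 9, namely Ndufs8, Ndufa1, Ndufb3, Ndufb5, Ndufb6, Ndufc2, Sdhd, Cox6b2, and Cox7b, which are named here after their values were seen. The counts taken over all 3 genotypes were not made for all genes, so no background stands beside them. Difference from 1 genotype to another in the counts above was tested only gene by gene, as described at the end. Markers of other cells differed between the gates too. In WT mice 8 of 10 neutrophil, 6 of 7 progenitor, and 10 of 10 proliferation genes were higher in Ly6C hi cells, as were 10, 6, and 10 in Slc29a3-/- and 9, 5, and 10 in Slc29a3-/- Tlr7-/- mice. T cell (4 of 5), plasmacytoid dendritic cell (4 of 5), NK cell (3 of 5), and conventional dendritic cell genes (3 of 6) were also higher in WT Ly6C hi cells, and in Slc29a3-/- mice erythroid (3 of 3) and red pulp macrophage genes (3 of 5) were lower. WT proliferation sums were 534 to 865 RPM in Ly6C hi and 95.8 to 161 RPM in Ly6C low libraries. The part of these markers in the result was not tested.

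**Figure D2:**
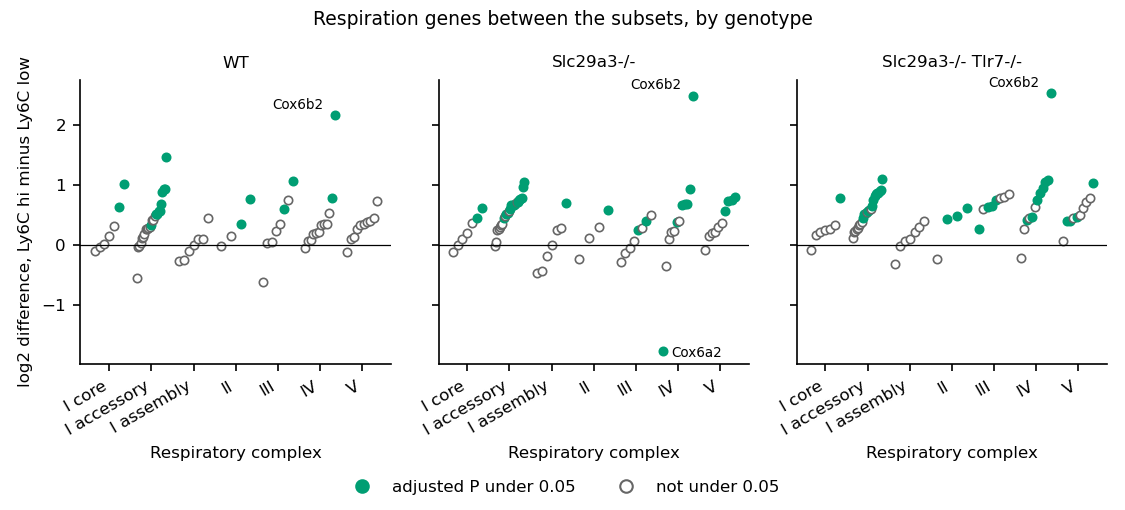
Log2 difference (Ly6C hi minus Ly6C low, on log2(RPM + 1)) of each tested member, by complex and genotype. Filled green points have an adjusted P under 0.05 and open points do not. Most points lie above 0 in each genotype (60, 60, and 68 of 74), and the assembly factors are spread around 0. The median of all genes is 0.07 in WT, -0.10 in Slc29a3-/-, and 0.12 in Slc29a3-/- Tlr7-/- cells.

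Complex I, the largest of the complexes, had the highest number of calls in each genotype. Of all genes 19.1%, 19.1%, and 21.4% were called higher in Ly6C hi cells of WT, Slc29a3-/-, and Slc29a3-/- Tlr7-/- mice. The shares called lower were 10.5%, 22.1%, and 11.8%. Of the 31 subunits of complex I 12 were called higher in WT, 16 in Slc29a3-/-, and 15 in Slc29a3-/- Tlr7-/- Ly6C hi cells, with 0 lower in any genotype. The 7 core subunits gave 2, 2, and 1 of these and the 24 accessory subunits 10, 14, and 14. Ndufb8, an accessory subunit of the membrane arm, had 40.9, 37.5, 41.2, and 46.02 RPM in WT Ly6C hi replicates 1 to 4. It had 23.4, 4.94, 13.2, and 26.5 RPM in WT Ly6C low replicates 1 to 4. The groups did not overlap, and replicate 2 was by far the lowest Ly6C low library. The log2 difference was 1.46 ± 0.32, adjusted P = 0.000976, and 1.00 when that library was left out. Ndufv1, the core subunit that binds NADH and flavin, had 56.95, 54.5, 70.6, and 59.4 RPM and 54.1, 15.8, 32.3, and 26.1 RPM in the same libraries. Here too replicate 2 was lowest, and the difference was 1.01 ± 0.23, adjusted P = 0.00158 in WT (0.73 without that library) but 0.37, adjusted P = 0.213 in Slc29a3-/- cells, where no call was made. Ndufc2, an accessory subunit, was higher in all 3 genotypes, by 0.89 ± 0.18, adjusted P = 0.000439, 0.97 ± 0.18, adjusted P = 0.000105, and 0.81 ± 0.18, adjusted P = 0.00106. Its WT values were 55.7, 56.3, 52.4, and 68.95 RPM in Ly6C hi and 35.7, 28.3, 25.6, and 35.2 RPM in Ly6C low cells, without overlap. In contrast, the core subunit Ndufs1, which carries iron-sulfur clusters, gave -0.04 in WT and was called in no genotype. Of the assembly factors, Ndufaf3 was called higher in Slc29a3-/- cells (0.70 ± 0.20, adjusted P = 0.00639), and none of the 7 was called in WT or Slc29a3-/- Tlr7-/- cells.

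Complex II held Sdhd, a membrane anchor, which was higher by 0.77 ± 0.13, adjusted P = 4.87e-05 in WT, 0.59 ± 0.13, adjusted P = 0.000696 in Slc29a3-/-, and 0.49 ± 0.13, adjusted P = 0.00507 in Slc29a3-/- Tlr7-/- cells. Its values were 217, 219.7, 212, and 233 RPM in WT Ly6C hi and 133, 118, 108, and 160.2 RPM in WT Ly6C low cells. Every WT Ly6C hi value exceeded every WT Ly6C low value. The flavoprotein Sdha was higher in WT Ly6C hi cells (0.34 ± 0.11, adjusted P = 0.0238), with -0.23 and -0.22 in the mutants, neither called. In complex III, Uqcrq was higher in WT by 1.07 ± 0.30, adjusted P = 0.00892, but leaving out WT Ly6C low replicate 2 brought this to 0.65 and ended the call. The Rieske protein Uqcrfs1, which carries the iron-sulfur cluster of the enzyme, was called in WT (0.60 ± 0.18, adjusted P = 0.0123) and Slc29a3-/- Tlr7-/- cells (0.75 ± 0.18, adjusted P = 0.00186). The core proteins Uqcrc1 and Uqcrc2 differed by 0.23 and 0.05 in WT, without a call.

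In complex IV 2, 6, and 8 of 12 tested members were called higher in WT, Slc29a3-/-, and Slc29a3-/- Tlr7-/- Ly6C hi cells. The share of all genes was 19.1%, 19.1%, and 21.4%, here and for complex V below. Cox8a, called in at least 1 genotype, reached 1 RPM in only 4 of the 24 libraries, all of them Ly6C hi. It passed the filter through Ly6C hi libraries alone, which favored a call in that direction. The totals over all members above include it too. Cox7a2, the common isoform of its subunit, was higher in Slc29a3-/- by 0.94 ± 0.13, adjusted P = 2.36e-06, with 183, 233, 207, and 221 RPM in Ly6C hi and 90.2, 108, 119.9, and 121 RPM in Ly6C low cells and no overlap. In WT its difference was 0.21, adjusted P = 0.244. Complex V gave 0, 4, and 4 of 10, among them the catalytic subunit Atp5b in Slc29a3-/- (0.72 ± 0.14, adjusted P = 0.000247) and Slc29a3-/- Tlr7-/- cells (0.47 ± 0.14, adjusted P = 0.0142). Several of the largest differences in the Slc29a3-/- Tlr7-/- mice rested on Ly6C low replicates 3 and 4. Ndufb11, of the complex I membrane arm, had 153, 144, 98.7, and 32.1 RPM in Ly6C low replicates 1 to 4 and 233, 117, 263, and 210.5 RPM in Ly6C hi cells, a difference of 1.10 ± 0.31, adjusted P = 0.00724. Cox4i1, the common isoform of the largest nuclear subunit of complex IV, and Atp5g3, of the rotating ring of the ATP synthase, differed by 1.07 ± 0.26, adjusted P = 0.00256 and 1.04 ± 0.31, adjusted P = 0.0121. Without these libraries the 3 differences were 0.41, 0.44, and 0.36, and no call remained.

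The clearest separation of the subsets was in Cox6b2 among the COX6 isoforms. Cox6b2, known as the testis form of subunit VIb, had 17.8, 16.03, 19.96, and 20.5 RPM in WT, 19.7, 22.2, 17.7, and 25.97 RPM in Slc29a3-/-, and 14.9, 15.9, 13.6, and 15.4 RPM in Slc29a3-/- Tlr7-/- Ly6C hi cells. In Ly6C low cells it had 4.54, 3.16, 2.60, and 3.37 RPM in WT, 2.38, 3.28, 3.31, and 3.02 RPM in Slc29a3-/-, and 3.55, 4.45, 0.079, and 1.20 RPM in Slc29a3-/- Tlr7-/- libraries. All 12 Ly6C hi values were higher than all 12 Ly6C low values, and the lowest, 0.079 RPM in Slc29a3-/- Tlr7-/- Ly6C low replicate 3, was under the level of 3 reads. The log2 differences were 2.16 ± 0.32, adjusted P = 8.65e-06 in WT, 2.48 ± 0.32, adjusted P = 5.82e-07 in Slc29a3-/-, and 2.53 ± 0.32, adjusted P = 8.13e-07 in Slc29a3-/- Tlr7-/- mice, and each call was kept when any 1 library was left out. The common form Cox6b1 had 325, 309.5, 368, and 293 RPM in WT Ly6C hi and 282, 409, 304, and 250.1 RPM in WT Ly6C low cells. Its ranges overlapped, and its differences were 0.08, adjusted P = 0.735 in WT, 0.22, adjusted P = 0.221 in Slc29a3-/-, and 0.41, adjusted P = 0.0232 in Slc29a3-/- Tlr7-/- cells. Cox6a1, the common form of subunit VIa, differed by 0.34, 0.23, and 0.45 and was called in no genotype. Whether Cox6b2 and Cox6b1 differed from each other was not tested. Neutrophil and proliferation markers moved with the subset in the same direction as Cox6b2, with neutrophil sums of 71.7 to 2474 RPM in WT Ly6C low libraries, and their part in the result was not tested. Between Slc29a3-/- and WT Ly6C hi cells Cox6b2 differed by 0.19, adjusted P = 0.417.

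**Figure D3:**
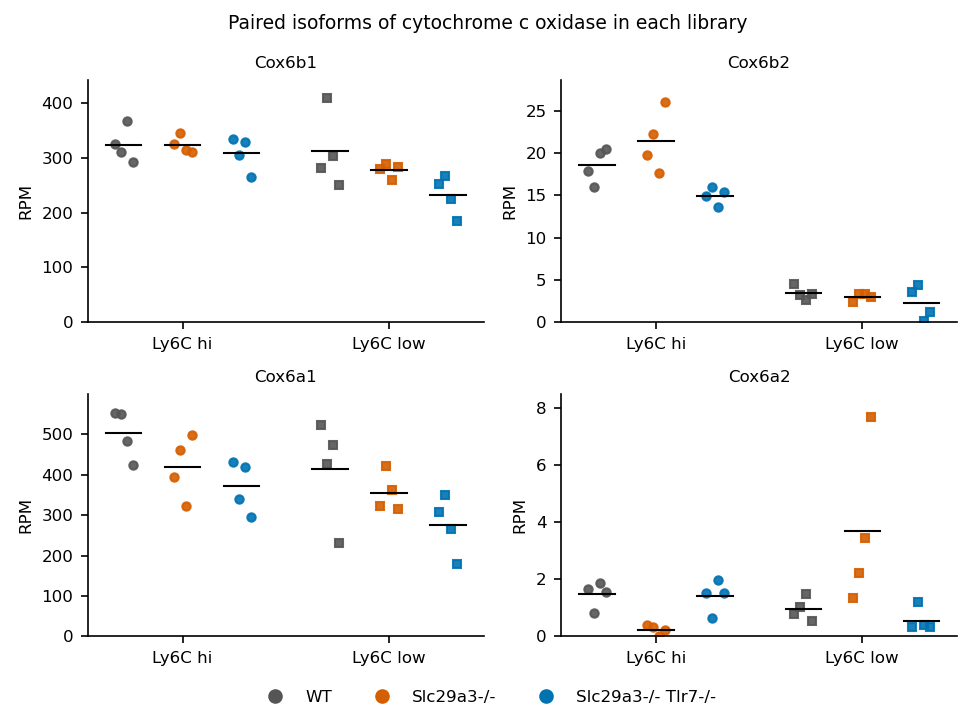
RPM per library of Cox6a1, Cox6a2, Cox6b1, and Cox6b2 in the 6 groups, colored by genotype as above, with circles for Ly6C hi, squares for Ly6C low libraries, and the mean as a line. Cox6b2 lies between 13.6 and 26 RPM in the Ly6C hi libraries and between 0.079 and 4.54 RPM in the Ly6C low libraries, and Cox6a2 is lowest in Slc29a3-/- Ly6C hi cells (0 to 0.398 RPM).

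The comparison of Slc29a3-/- with WT Ly6C hi cells asks what loss of the transporter did to these genes in the subset. Of 73 members tested 8 were higher and 5 lower in Slc29a3-/- cells, beside 10.2% and 17.8% of all 10561 genes. The members' median difference was 0.00 and that of all genes -0.14. Scaling by RLE moved the median of all genes to -0.03 and that of the members to 0.12, and then 14 members were higher and 3 lower (13.8% and 13.6% of all genes). The ranges of the groups did not overlap for 9 members higher and 7 lower (11.9% and 21.8% of all genes). Against WT replicate 4 alone, the WT library in the barcode range of the mutants, 0 members were called in either direction, but that fit takes the spread of the lone library from the other groups and called 156 of all genes instead of 2949, so it says little about the members. Counts of higher members also fell when single libraries were left out, to 1, 0, and 3 without WT replicate 1, 2, or 3 and to 3, 5, and 1 without Slc29a3-/- replicate 1, 2, or 3. No share of all genes stands beside the counts of these reduced fits. Markers of other cells moved with this comparison. In Slc29a3-/- cells 6 of 10 neutrophil genes were higher and 2 lower, 5 of 7 progenitor genes (868 to 2901 against 352 to 456 RPM) and 10 of 10 proliferation genes (1496 to 2578 against 534 to 865 RPM) were higher, and 5 of 5 plasmacytoid dendritic cell genes (267 to 464 against 785 to 965 RPM) were lower, with none of these markers at 0 throughout a Ly6C hi group. T cell (5 of 5), NK cell (4 of 5), conventional dendritic cell (5 of 6), and immediate early genes (8 of 9) were lower too. The immediate early genes also differed within WT, where Fos had 3572, 4128, 3879, and 145 RPM in replicates 1 to 4, beside 79.5, 75.2, 49.8, and 62.6 RPM in Slc29a3-/- cells. Replicate 4 was thus closer to the Slc29a3-/- libraries than to WT replicates 1 to 3, the libraries of the lower barcode range. In Ly6C low cells Fos had 3399, 2446, 2870.2, and 38.9 RPM in WT. The part of these markers in the results below was not tested.

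The lower members included core subunits of complex I. Ndufs1, the largest core subunit, had 181, 179, 158, and 176 RPM in WT and 135, 121, 113, and 128 RPM in Slc29a3-/- cells, without overlap (-0.48 ± 0.12, adjusted P = 0.00794). This call was kept whichever library was left out, and against WT replicate 4 alone the difference was -0.50, without a call. Ndufs3, another core subunit, had 128, 133, 132, and 92.3 RPM in WT and 82.2, 83.6, 105, and 73.9 RPM in Slc29a3-/- cells (-0.49 ± 0.16, adjusted P = 0.0344). Here WT replicate 4 lay apart from the other WT libraries and inside the mutant range, and the difference from it alone was -0.11. Among core subunits without a call, differences ranged from -0.03 for Ndufs7 to 0.17 for Ndufv1. In complex II the iron-sulfur subunit Sdhb was lower (-0.44 ± 0.15, adjusted P = 0.0371), with 169.7, 177, 168, and 142 RPM in WT and 114, 141, 106, and 122 RPM in Slc29a3-/- cells. The ranges nearly touched, at 142 RPM in WT replicate 4 and 141 RPM in Slc29a3-/- replicate 2. Calls for Ndufs3 and Sdhb were lost with RLE scaling (-0.37, adjusted P = 0.103, and -0.33, adjusted P = 0.13). Sdha, Sdhc, and Sdhd differed by -0.10, -0.15, and -0.10 without a call.

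The higher members were accessory subunits of complex I and parts of the ATP synthase and of complex IV. Of 24 accessory subunits of complex I 4 were higher and 0 lower, beside 10.2% and 17.8% of all genes. Ndufb2, of the membrane arm, had 15.1, 14.3, 15.5, and 21.4 RPM in WT and 28.8, 26.7, 26.6, and 22.2 RPM in Slc29a3-/- Ly6C hi cells, without overlap (0.64 ± 0.17, adjusted P = 0.0145). WT replicate 4 was nearest to the mutants, and against it alone the difference was 0.27. The others were Ndufc1 (0.45 ± 0.15, adjusted P = 0.0361), Ndufb3 (0.40, adjusted P = 0.0391), and Ndufb10 (0.35, adjusted P = 0.0494), the last 2 named after their values were seen. In complex V, Atp5o, which joins the stator to the catalytic head, had 96.5, 97.3, 118, and 116 RPM in WT and 159, 173, 202, and 117 RPM in Slc29a3-/- cells. Its lowest mutant value was close to the highest WT value, and the difference was 0.58 ± 0.17, adjusted P = 0.0179. Atp5j, coupling factor 6 of the stator, was higher by 0.53 ± 0.19, adjusted P = 0.0486, and its WT replicate 4 lay inside the mutant range. Within complex IV, Cox7a2 (0.41 ± 0.13, adjusted P = 0.0348) and Ndufa4 (0.39 ± 0.13, adjusted P = 0.0327) were higher. Complex III gave no call among 8 members, with differences from -0.43 for Uqcr10 to 0.12 for Uqcr11.

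**Figure D4:**
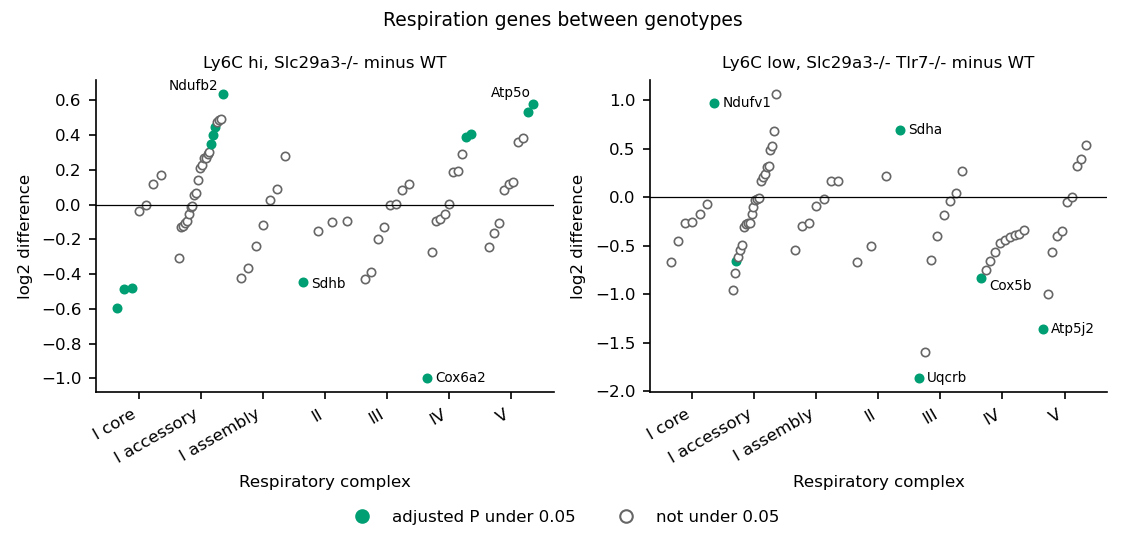
Log2 difference on log2(RPM + 1) of each tested member by complex, for Slc29a3-/- minus WT in Ly6C hi cells (left) and Slc29a3-/- Tlr7-/- minus WT in Ly6C low cells (right). Green filled points have an adjusted P under 0.05. In Slc29a3-/- against WT Ly6C hi cells 8 members are called above 0 and 5 below. The members of complex IV all lie below 0 in Slc29a3-/- Tlr7-/- against WT Ly6C low cells (10 of 10, 1 called), where the median of all genes is -0.10.

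Whether the differences persist without TLR7 was asked by setting Ly6C hi cells of Slc29a3-/- Tlr7-/- mice against those of WT, which gave 0 members higher and 0 lower, where 0.312% and 1.15% of all genes were called. At an unadjusted P under 0.05 there were 7 higher and 3 lower members (8.56% and 14.5% of all genes), and with RLE scaling the counts stayed at 0. Ndufs1 had 131, 116, 109.5, and 138 RPM in Slc29a3-/- Tlr7-/- cells, under all 4 WT values listed above. Its difference from WT was -0.49 ± 0.12, adjusted P = 0.0513, which narrowly missed the threshold and was close to that in Slc29a3-/- cells in size. Both comparisons use the same WT libraries. The missed threshold does not show that the 2 genotypes were alike, since the 73 differences from WT reached from -0.79 for Uqcr10 to 0.53 for Atp5c1.

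Set directly against each other, Slc29a3-/- Ly6C hi cells had 3 members higher and 2 lower than Slc29a3-/- Tlr7-/- cells (10% and 10.3% of all genes; with RLE scaling 5 and 1, beside 12.1% and 7.20%). Without Slc29a3-/- Tlr7-/- replicate 2 the counts were 2 and 1, with no share of all genes beside them. Cox5a, a nuclear subunit of complex IV, had 103, 101, 104, and 111 RPM in Slc29a3-/- and 75.9, 76.4, 81.02, and 79.5 RPM in Slc29a3-/- Tlr7-/- cells. These ranges did not overlap, the difference was 0.41 ± 0.11, adjusted P = 0.0172, and it was called whichever library was left out. Ndufb7 (0.41 ± 0.12, adjusted P = 0.029) and Ndufa4 (0.39 ± 0.13, adjusted P = 0.0402) were higher as well, the latter without a call once that replicate was left out (0.36). For Ndufs1 the same comparison gave 0.01 ± 0.12, adjusted P = 0.958. Marker genes again moved along, with 8 of 10 neutrophil genes and 10 of 10 proliferation genes higher and 1 and 0 lower in Slc29a3-/- cells. Progenitor genes (5 of 7) were higher and plasmacytoid (4 of 5) and conventional dendritic cell genes (6 of 6) lower, and their part in these results was not tested. The barcodes of the mutant genotypes formed separate ranges, so barcode range and genotype cannot be told apart in this comparison.

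Cox6a2, the muscle form of subunit VIa, had the largest called decrease among the members in Slc29a3-/- Ly6C hi cells, at a very low level. Among Ly6C hi libraries it passed the filter of 1 RPM in 4 libraries only through WT and Slc29a3-/- Tlr7-/- cells. In that fit a call in Slc29a3-/- cells could therefore only be a decrease. It had 1.67, 0.833, 1.89, and 1.56 RPM in WT, 0.398, 0.316, 0, and 0.238 RPM in Slc29a3-/-, and 1.54, 0.650, 1.98, and 1.52 RPM in Slc29a3-/- Tlr7-/- Ly6C hi cells. In Ly6C low cells it had 0.769, 1.03, 1.48, and 0.536 RPM in WT, 1.35, 2.24, 3.47, and 7.71 RPM in Slc29a3-/-, and 0.323, 1.19, 0.395, and 0.320 RPM in Slc29a3-/- Tlr7-/- libraries. Slc29a3-/- libraries were thus lowest of all genotypes in Ly6C hi cells, at a few reads each. In Ly6C low cells their mean was highest, and replicate 4 stood out. The groups overlapped there, with Slc29a3-/- replicate 1 (1.35 RPM) under WT replicate 3 (1.48 RPM). The Ly6C hi differences were -0.997 ± 0.26, adjusted P = 0.0105 from WT and -0.95 ± 0.26, adjusted P = 0.0177 from Slc29a3-/- Tlr7-/- cells, and the scale of log2(RPM + 1) understates them at this level. Ly6C low differences were 1.11 ± 0.35, adjusted P = 0.0884 and 1.45 ± 0.35, adjusted P = 0.0514, neither called. Plasmacytoid dendritic cell genes moved with it in Ly6C hi cells. Siglech, a defining marker of these cells, had 41.9, 43.02, 38.5, and 13.7 RPM in WT, 3.50, 1.26, 2.22, and 2.86 RPM in Slc29a3-/-, and 18.5, 17.7, 17.7, and 16.4 RPM in Slc29a3-/- Tlr7-/- Ly6C hi libraries, and its part in the result was not tested. Ly6C low sums of the 5 genes overlapped, at 265 to 509 RPM in WT and 298 to 336 RPM in Slc29a3-/- cells.

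Slc29a3-/- and WT Ly6C low libraries differed in 0 of 72 members in either direction, where 2.02% of all 10317 genes were called higher and 2.63% lower. At an unadjusted P under 0.05 there were 4 higher and 9 lower members (9.12% and 10.8% of all genes), and by a fold over 1.5 with that P, the rule of the study, there were 3 and 3 (6.15% and 7.05%). RLE scaling left the counts at 0. Sdha had 163, 157, 173, and 175 RPM in WT and 229.6, 238, 233, and 228 RPM in Slc29a3-/- Ly6C low cells. All 4 mutant values were above all WT values, but the adjusted P was 0.0652 for a difference of 0.47 ± 0.14. Ndufs1 had 202, 171, 168, and 171 RPM in WT and 143, 91.04, 101, and 138 RPM in Slc29a3-/- cells, again without overlap and without a call (-0.61 ± 0.22, adjusted P = 0.123). In this comparison 2 members lay wholly above and 10 wholly below WT (6.66% and 11% of all genes). Erythroid markers were higher in Slc29a3-/- Ly6C low cells (3 of 3 tested, 79.7 to 101 against 0.912 to 8.51 RPM), 2 of 5 red pulp macrophage genes were higher, and 5 of 9 immediate early, 3 of 8 neutrophil, and 3 of 6 conventional dendritic cell genes were lower. Their part in these values was not tested.

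Slc29a3-/- Tlr7-/- Ly6C low cells differed from WT in 2 members called higher and 4 called lower, beside 2.50% and 6.37% of all genes. By a fold over 1.5 and unadjusted P under 0.05 the counts were 3 and 14 (6.08% and 14.6%). With RLE scaling the calls were 3 and 2 (4.95% and 4.73%). The groups did not overlap for 2 members higher and 13 lower (3.01% and 9.29%). The median difference of the members was -0.27 and that of all genes -0.10, and 53 of 72 members were below 0. All 10 tested members of complex IV were below 0, with a median of -0.46 and 1 call. The share of all genes below 0 is not given beside this count, and 1 of the 10, Cox6a2, was near the detection limit. Single libraries did not all share the sign. Cox7b had 177 and 181 RPM in mutant replicates 1 and 2 and 92.0 and 64.1 RPM in 3 and 4, against 136 to 164 RPM in WT. Cox7a2 lay under all WT values in all 4 mutant libraries. Without Slc29a3-/- Tlr7-/- replicates 3 and 4, left out after the data were seen, 2 members were higher and 1 lower. The count of lower members ran from 0 to 14 as single libraries were left out, with 0 without WT replicate 1, 2, or 3 or Slc29a3-/- Tlr7-/- replicate 3, and 13, 12, and 14 without WT replicate 4 or Slc29a3-/- Tlr7-/- replicate 1 or 2. The count of higher members was 0 without WT replicate 2 or 3, 1 without Slc29a3-/- Tlr7-/- replicate 3 or 4, 4 without its replicate 1, and 5 without WT replicate 4. For these fits with 1 or 2 libraries left out, the shares of all genes are not given here, so the counts have no background. Against WT replicate 4 alone, with the spread of that library taken from the other groups, 0 of all genes were called, so that the fit could not test the members.

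The 2 higher members were Sdha and Ndufv1, the flavin-binding subunits of complexes II and I. Sdha had 236, 228, 305, and 328 RPM in Slc29a3-/- Tlr7-/- Ly6C low cells, against the 157 to 175 RPM of WT listed above. All were above all WT values, with replicates 3 and 4 highest (0.70 ± 0.14, adjusted P = 0.0136). The difference from WT replicate 4 alone was 0.63. In Ly6C hi cells Sdha had 206, 204, 217, and 222 RPM in WT and 219, 255, 235, and 221 RPM in Slc29a3-/- Tlr7-/- cells, which overlapped (0.13, adjusted P = 0.501). Ndufv1 had 52.01, 52.2, 52.2, and 82.1 RPM in Slc29a3-/- Tlr7-/- Ly6C low cells and 54.1, 15.8, 32.3, and 26.1 RPM in WT. Its groups overlapped through WT replicate 1, and the call (0.97 ± 0.28, adjusted P = 0.0487) was lost without WT replicate 2, 3, or 4 or Slc29a3-/- Tlr7-/- replicate 3 or 4.

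The lower members were small subunits of complexes I, III, IV, and V. Uqcrb, which binds ubiquinone in complex III, had 19.3, 57.03, 25.8, and 21.7 RPM in WT and 17.1, 19.2, 3.16, and 1.68 RPM in Slc29a3-/- Tlr7-/- Ly6C low cells. The difference of -1.86 ± 0.55, adjusted P = 0.0496 rested on the high WT replicate 2 and the low Slc29a3-/- Tlr7-/- replicates 3 and 4, and without the latter 2 it was -0.60. Without WT replicate 2 it was -1.53 and no longer called (adjusted P = 0.158). Atp5j2, subunit f of the membrane part of the ATP synthase, had 167, 264, 190.0, and 172 RPM and 122, 128, 70.4, and 29.2 RPM in the same groups. Again WT replicate 2 was highest and replicates 3 and 4 of the mutant lowest (-1.36 ± 0.35, adjusted P = 0.0347; -0.64 without these replicates, and -1.21, adjusted P = 0.116, without WT replicate 2). Cox5b, the zinc-binding subunit of complex IV, had 148, 143, 139.6, and 113 RPM and 96.2, 105, 69.1, and 46.6 RPM (-0.83 ± 0.22, adjusted P = 0.0366; -0.43 without them). Ndufa13, an accessory subunit of complex I, had 71.7, 102, 78.2, and 64.99 RPM and 50.9, 61.2, 47.9, and 38.7 RPM (-0.66 ± 0.17, adjusted P = 0.0357; -0.48 without them). The WT and mutant ranges of these 4 members did not overlap, by a margin of less than 1 RPM for Uqcrb.

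Replicates 3 and 4 of this group stood apart in members of several complexes at once, as was seen only from the values. Uqcr10 had 77.7, 84.3, 20.7, and 6.79 RPM in Slc29a3-/- Tlr7-/- Ly6C low replicates 1 to 4, Uqcrh 223, 212, 64.95, and 28.7 RPM, and Atp5k 124, 102, 40.2, and 12.1 RPM. In each, replicate 4 was lowest and replicate 3 next. Atp5g3, with 154, 168, 99.05, and 38.7 RPM, and Cox4i1, with 76.7, 84.2, 44.2, and 24.4 RPM, followed the same order. Other members went the opposite way in replicate 4, such as Atp5c1, the central shaft of the ATP synthase, at 146, 164, 172, and 281 RPM. In the Ly6C hi group of the same genotype replicate 2 was low for the same members, with 102, 17.5, 106, and 56.7 RPM for Uqcr10 and 130.0, 32.98, 124, and 88.9 RPM for Atp5k. Differences of these members between genotypes were not called (-1.59, adjusted P = 0.082 for Uqcr10 and -0.40, adjusted P = 0.599 for Uqcrh). Neutrophil genes were lower in Slc29a3-/- Tlr7-/- than in WT Ly6C low cells (8 of 8 tested, 8.26 to 56.6 against 71.7 to 2474 RPM, with Ly6g at 0 in all 4 mutant libraries), as were 4 of 6 progenitor, 4 of 5 NK cell, and 5 of 9 immediate early genes, and their part was not tested. Slc29a3-/- and Slc29a3-/- Tlr7-/- Ly6C low cells differed in 0 members higher and 0 lower (1.22% and 0.708% of all genes), with 15 and 2 at an unadjusted P under 0.05 (14.1% and 5.49%) and 10 and 1 by the fold rule (10.8% and 2.92%).

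**Figure D5:**
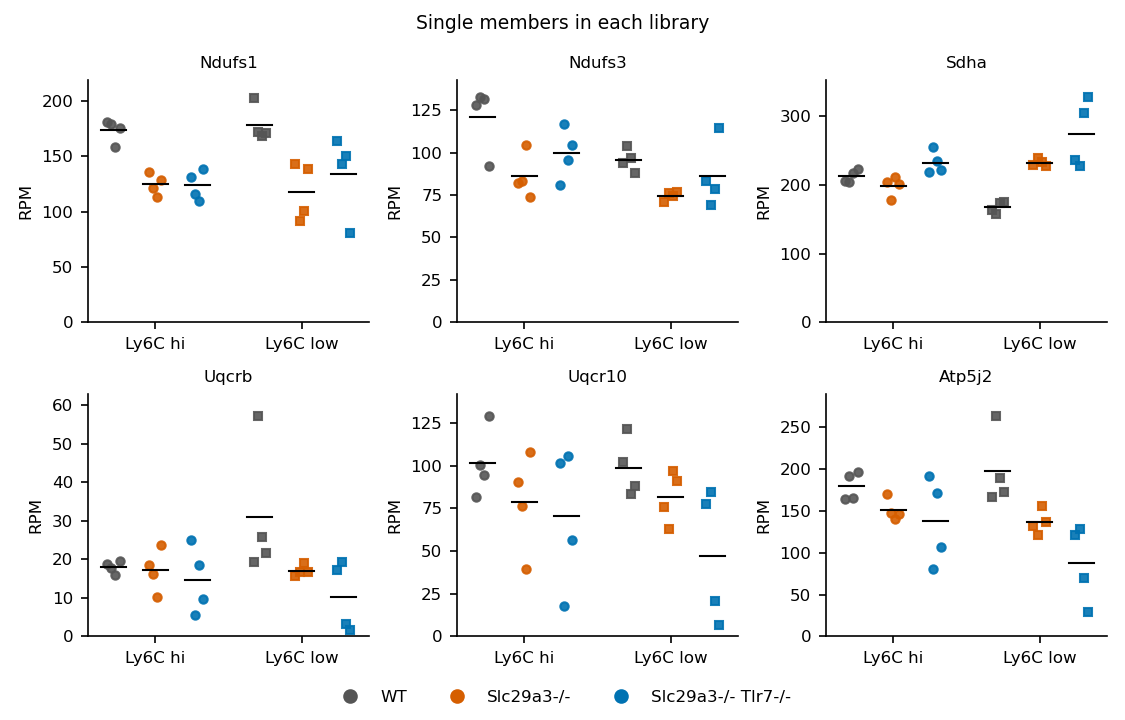
RPM per library of Ndufs1, Ndufs3, Sdha, Uqcrb, Uqcr10, and Atp5j2 in the 6 groups, colored by genotype, with circles for Ly6C hi, squares for Ly6C low libraries, and the mean as a line. Ndufs1 is at 113 to 135 RPM in the 4 Slc29a3-/- Ly6C hi libraries against 158 to 181 RPM in WT, and Uqcrb, Uqcr10, and Atp5j2 fall in 2 of 4 Slc29a3-/- Tlr7-/- Ly6C low libraries.

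An interaction term asked whether a genotype acted differently in Ly6C hi and Ly6C low cells. For Slc29a3-/- against WT, 3 members had a more positive difference in Ly6C hi than in Ly6C low cells and 2 a more negative one, beside 4.13% and 4.72% of all genes. Cox7a2 was 1 of the former (0.72 ± 0.19, adjusted P = 0.0145), with differences of 0.41 in Ly6C hi and -0.32 in Ly6C low cells, and it was called whichever library was left out. Ndufv3 (1.12 ± 0.35, adjusted P = 0.0442) and Ndufc1 (0.69 ± 0.21, adjusted P = 0.0461), accessory subunits of complex I, were the others, and most single libraries ended their calls. Cox6a2 was the most negative (-2.11 ± 0.42, adjusted P = 0.0023). Sdha, whose level in WT was higher in Ly6C hi than in Ly6C low cells and in Slc29a3-/- was not, gave -0.57 ± 0.16, adjusted P = 0.0264, and with RLE scaling -0.40 (adjusted P = 0.177). For Slc29a3-/- against Slc29a3-/- Tlr7-/- cells, Cox6a2 was the only member called (-2.40 ± 0.42, adjusted P = 0.00109), beside 4.54% and 4.44% of all genes.

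Related gene lists were measured beside the members. Of 15 tested regulators of mitochondrial biogenesis 2 were higher and 1 lower in Slc29a3-/- than in WT Ly6C hi cells, where 10.2% and 17.8% of all genes were. Gabpb1, a subunit of the ETS factor GABP, was higher (0.70 ± 0.14, adjusted P = 0.00225), as was Polg, the mitochondrial DNA polymerase (0.39 ± 0.13, adjusted P = 0.0325), and the coactivator Ppargc1b was lower (-0.86 ± 0.27, adjusted P = 0.0258). Among 35 assembly factors and partners outside the member list 1 was higher and 4 lower, such as Cox10, which is needed to make the heme of complex IV (-0.54 ± 0.18, adjusted P = 0.0329). Of 15 genes of pyruvate dehydrogenase and the TCA cycle 0 were higher and 2 lower, Pdha1 (-0.53 ± 0.13, adjusted P = 0.00897) and Idh3g (-0.36 ± 0.11, adjusted P = 0.0248). The mitochondrial ribosome had 7 higher and 4 lower of 69 and the cytosolic ribosome 0 higher and 4 lower of 17. Glycolysis, measured through 14 genes, had 5 higher and 1 lower with a median difference of 0.40, led by the hexokinase Hk3 (0.93 ± 0.14, adjusted P = 0.000509) and Tpi1 (0.68 ± 0.12, adjusted P = 0.00136), whereas Pfkm was lower (-0.88 ± 0.23, adjusted P = 0.0123). The medians of the other 5 lists were -0.07, -0.01, 0.03, -0.04, and -0.24 in this order, beside -0.14 for all genes.

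In Slc29a3-/- against Slc29a3-/- Tlr7-/- Ly6C hi cells, where 10% of all genes were higher and 10.3% lower, glycolysis had 3 higher and 0 lower of 14, with Hk3 (0.81 ± 0.14, adjusted P = 0.00112) again among them. The cytosolic ribosome had 0 higher and 4 lower of 17, assembly factors and partners 0 and 2 of 35, the mitochondrial ribosome 2 and 2 of 69, the regulators 1 and 1 of 15, and the TCA list 0 and 0 of 15. In Slc29a3-/- Tlr7-/- against WT Ly6C hi cells each of the 6 lists had 0 higher and 0 lower, where 0.312% and 1.15% of all genes were called. In Slc29a3-/- against WT Ly6C low cells the mitochondrial ribosome had 1 and 1 of 68 and the other lists 0 (2.02% and 2.63% of all genes), and between the mutants in Ly6C low cells each list had 0 and 0 (1.22% and 0.708%). In Slc29a3-/- Tlr7-/- against WT Ly6C low cells 1 regulator (Myc, -0.97 ± 0.26, adjusted P = 0.0398), 1 assembly factor (Nubpl, -1.21 ± 0.21, adjusted P = 0.00912), and 1 pyruvate dehydrogenase gene (Pdhb, -1.31 ± 0.33, adjusted P = 0.0298) were lower, the mitochondrial ribosome had 1 higher and 4 lower, and the cytosolic ribosome 1 higher (2.50% and 6.37% of all genes). Between the subsets, where 19.1%, 19.1%, and 21.4% of all genes were higher and 10.5%, 22.1%, and 11.8% lower in Ly6C hi cells of WT, Slc29a3-/-, and Slc29a3-/- Tlr7-/- mice, the regulators had 2 higher and 1 lower in WT. Esrra, which encodes estrogen-related receptor alpha, was lower in Ly6C hi cells of all 3 genotypes (-0.76, -0.81, and -0.77 in WT, Slc29a3-/-, and Slc29a3-/- Tlr7-/-), and Myc was higher (1.70, 1.53, and 1.33), each called. The TCA list had 2 higher and 1 lower in WT, 2 and 1 in Slc29a3-/-, and 4 and 1 in Slc29a3-/- Tlr7-/- cells, with fumarase (Fh1) higher in all 3 (0.71, 0.95, and 0.94). Assembly factors and partners had 2 and 2, 1 and 4, and 4 and 1 of 36, and the mitochondrial ribosome 8 and 1, 12 and 3, and 12 and 2 of 69. Glycolysis genes differed in both directions, with 5 higher and 4 lower in WT, such as Ldhb (2.49) and Eno3 (-4.33).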

How the data were processed

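RNA of splenic Ly6C hi and Ly6C low cells, sorted from mice of 3 genotypes, was amplified with a panel of 1 amplicon per gene (Ion AmpliSeq Transcriptome) and read on an Ion Proton, in 4 libraries per group. The deposited values are RPM, reads per 1000000 of each library, as made by the authors, with mm10 named as the genome. The study describes alignment with STAR, counting with HTSeq, and RLE scaling in DESeq2, and which step wrote the table was not given in the sources used here. A value of 1e-04, which stood for 0 at 246004 places of the table, was set back to 0, and 27 gene names turned into dates were repaired. Reads per library were computed from the step between low values and ran from 12311031 to 14572274, and limits that follow from 3 reads cover counting error only.

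Amplicons with at least 1 RPM in at least 4 libraries were tested on log2(RPM + 1), with a pseudocount of 1, by limma 3.58.1 with an intensity trend (R 4.3.3), two-sided, with the 12 libraries of a subset in 1 fit or all 24 for differences between subsets and interactions. P values were adjusted by Benjamini-Hochberg over all amplicons tested, and a call means an adjusted P under 0.05. A log2 difference is on this scale and understates the change of low genes. The steps were tested on simulated data with independent noise for each gene. Those data held no outlying libraries and no split by barcode, so they do not bear on these limits. Figures were drawn with matplotlib 3.10.9.

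The members and the gene lists were chosen with earlier results of these data known. Genes named are a set list of well-known subunits, per comparison up to 5 members called higher and 5 called lower with the largest differences, the highest and lowest mean of a complex, members at 0, and for other lists the 3 smallest adjusted P values per comparison. Cox7a2l, Atp5g1, and Atp5g2 were not analysed here, and 1 further member is counted but not reported singly. Promoter sequences and positions were from RefSeq on GRCm38.p6, where 81 members had a position and 64 a promoter window. The rule set was that replicate numbers pair the subsets in WT if every pair correlated over 0.1. Deviations of same-numbered Ly6C hi and Ly6C low libraries correlated with r of 0.259 to 0.619 over 11042 amplicons in all 4 pairs. Only 2 of 4 correlated best with their own number. WT replicate 4 stood apart from replicates 1 to 3 in both subsets, as for Fos. The rule cannot tell pairing from that split, so pairing was not shown. The alternatives were RLE scaling, no filter, a pseudocount of 0.1, a replicate block, WT replicate 4 as the only WT library, leaving out each library, and, added after the data were seen, leaving out Slc29a3-/- Tlr7-/- Ly6C low replicates 3 and 4.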

Additional observations from a re-analysis of the deposited data

Results flagged for a closer look

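Among 186 groups of 4 libraries, those of the members named most, 13 held 1 library that stood far from the other 3 by Dixon's criterion, and chance alone marks about 1 group in 20. WT replicate 4 was the library in 6 of them. In Ly6C hi cells it was high for Ndufb2 (21.372 RPM) and Atp5j (199.522 RPM) and low for Ndufs3 (92.273 RPM), and in Ly6C low cells it was high for Atp5j (158.64 RPM) and Ndufa4 (211.75 RPM) and low for Ndufb7 (178.336 RPM). WT replicate 1 stood apart for Ndufs1 in Ly6C low cells (202.404 RPM) and for Ndufb11 in Ly6C hi cells (227.598 RPM). In Slc29a3-/- cells the libraries were replicate 3 for Ndufb2 (16.721 RPM, Ly6C low), replicate 1 for Cox5b (91.281 RPM, Ly6C low), and replicate 3 for Atp5g3 (213.923 RPM, Ly6C hi). In Slc29a3-/- Tlr7-/- cells they were replicate 4 for Sdhb (105.759 RPM, Ly6C hi) and replicate 4 for Ndufv1 (82.137 RPM, Ly6C low).

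The difference between Slc29a3-/- and WT cells itself differed between Ly6C hi and Ly6C low cells for 5 members by the interaction test in limma. These were Cox6a2 (-2.11, adjusted P = 0.0023), Cox7a2 (0.72, adjusted P = 0.0145), Sdha (-0.57, adjusted P = 0.0264), Ndufv3 (1.12, adjusted P = 0.0442), and Ndufc1 (0.69, adjusted P = 0.0461). Between Slc29a3-/- and Slc29a3-/- Tlr7-/- cells it differed for Cox6a2 (-2.40, adjusted P = 0.00109).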

How the results depend on the processing

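None of the members named with a call changed sign under any alternative run. The planned count test on whole reads was not run. With RLE scaling, members higher and lower in Slc29a3-/- than in WT Ly6C hi cells numbered 14 and 3 in place of 8 and 5, those against Slc29a3-/- Tlr7-/- Ly6C hi cells 5 and 1 in place of 3 and 2, those higher and lower in Slc29a3-/- Tlr7-/- than in WT Ly6C low cells 3 and 2 in place of 2 and 4, those lower in Ly6C hi than in Ly6C low cells of Slc29a3-/- Tlr7-/- mice 1 in place of 0, and the interaction of Slc29a3-/- against Slc29a3-/- Tlr7-/- 3 in place of 1. Without the filter, 3 were lower in Slc29a3-/- than in WT Ly6C hi cells, and 1 was higher and 1 lower in Slc29a3-/- Tlr7-/- than in WT Ly6C low cells. With a pseudocount of 0.1, 1 was higher in that last comparison, 1 was higher in Slc29a3-/- than in Slc29a3-/- Tlr7-/- Ly6C low cells in place of 0, and the interaction against WT gave 3 in place of 5. Against WT replicate 4 alone, whose spread is taken from the other groups, 0 were higher and 0 lower in Slc29a3-/- against WT Ly6C hi and in Slc29a3-/- Tlr7-/- against WT Ly6C low cells. Without Slc29a3-/- Tlr7-/- Ly6C low replicates 3 and 4, 1 was lower than in WT. Shares of all genes are not given for the settings other than RLE scaling. The cause of these changes was not tested.

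The replicate block gave 3 members higher in Slc29a3-/- than in WT Ly6C hi cells in place of 8, 1 higher in Slc29a3-/- Tlr7-/- than in WT Ly6C low cells in place of 2, and 2 in place of 5 for the interaction against WT. Between genotypes the numbers are only labels, since correlations of same-numbered libraries ran from -0.187 to 0.153 and 4 of 24 libraries correlated best with their own number. Between the WT subsets, where pairing was not shown, the block gave 19 members higher in place of 18.

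Higher calls outnumbered lower ones in Slc29a3-/- against WT Ly6C hi cells, but without WT replicate 1 or 2 they were 1 and 3 or 0 and 3. As single libraries were left out, counts higher and lower ran from 0 to 7 and 3 to 5 for Slc29a3-/- against WT Ly6C hi, 0 to 1 and 0 to 1 for Slc29a3-/- Tlr7-/- against WT Ly6C hi, and 1 to 3 and 0 to 4 for Slc29a3-/- against Slc29a3-/- Tlr7-/- Ly6C hi cells. In Ly6C low cells they ran from 0 to 3 and 0 to 3, 0 to 5 and 0 to 14, and 0 to 4 and 0 to 0 in the same order. Between the subsets they were 14 to 21 and 0 to 1 in WT, 26 to 31 and 1 to 1 in Slc29a3-/-, and 26 to 35 and 0 to 1 in Slc29a3-/- Tlr7-/- mice, and for the interactions 2 to 6 against WT and 1 to 3 against Slc29a3-/- Tlr7-/-. Shares of all genes in these fits are not given here. Of the single calls named, leaving out a library kept 285 and lost 107. RLE scaling kept 37 and lost 6, the block 36 and 7, the pseudocount 38 and 5, and no filter 34 and 9. Most calls were lost when Slc29a3-/- Tlr7-/- Ly6C low replicates 3 and 4 were both removed, which kept 3 and lost 8. The run against WT replicate 4 alone is not tallied, since a lone library gives no spread of its own. Among the members with calls, depth bears on Cox6a2, at 0 to 0.398 RPM in Slc29a3-/- Ly6C hi libraries, where 3 reads were 0.206 to 0.244 RPM. It bears also on Cox8a, at 0.281 to 1.23 RPM over the 24 libraries. For Cox6b2 it bears on Slc29a3-/- Tlr7-/- Ly6C low replicate 3, at 0.079 RPM.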
